A study of Mus musculus with 7 samples.

Results

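Kit, Kitl, Ano1, Etv1, Prkcq and Cd34 are 6 genes used to recognise interstitial cells of Cajal or the factor that sustains them. They were taken as a list, by Entrez identifier, from the 27179 genes of the expression table, and all 6 had a row. RNA sequencing had been carried out on sorted cells of the small bowel muscle layer and of posterior subcutaneous fat of Wnt1-Cre;tdTomato (Wnt1-tdT) mice. In these mice Cre recombinase driven by the Wnt1 promoter switches on a tdTomato reporter at the R26R locus, which marks neural crest cells and their descendants. All 7 groups carried both alleles, and each was 1 library made from equal parts of 3 animals (2 females, 1 male) at 1 month of age.

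Of the bowel, tdTomato-positive cells were sequenced fresh, or after 10 days of neurosphere culture that followed the sort (method M1). Mixed bowel cells were also grown for 10 days as spheroids and then sorted into tdTomato-positive and tdTomato-negative cells, and both were sequenced. The positive cells of such spheroids, grown for 10 further days, made the M2 neurospheres. Of the fat, tdTomato-positive cells were sequenced fresh, or as neurospheres made in the same way as M2. All cultures were grown in a proliferation medium with heparin and the growth factors EGF and basic FGF. The tdTomato-negative cells are the 1 group that is not of the labelled lineage.

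Interstitial cells of Cajal (ICC) are the pacemaker and relay cells of the gut muscle. They depend on the receptor tyrosine kinase KIT, whose ligand, stem cell factor, is encoded by Kitl and made by neurons, muscle and fibroblasts around them. KIT signalling stabilises the ETS transcription factor ETV1, and the calcium-activated chloride channel anoctamin 1, encoded by Ano1, carries the pacemaker current. ICC derive from mesoderm and not from the neural crest. None of the 6 genes is limited to ICC: mast cells and melanocytes use KIT, T lymphocytes use protein kinase C theta (Prkcq), neurons use ETV1, and endothelial cells and fibroblast-like cells carry CD34.

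Libraries held 51885106 to 65301500 reads assigned to genes. Levels are given in CPM (read counts scaled to the total assigned to genes) with 95% exact Poisson intervals where they matter, and these cover counting error only. With 1 library per group there was no replicate check and no test. "Higher" and "lower" are kept for genes that passed a rule of size (the size rule): at least a 4-fold ratio of scaled reads, with a 95% counting interval wholly beyond 2-fold. A gene counted as measured at 1 CPM or more in either library. The crest and glial markers matched the sort: their summed level was 24.4 CPM in the tdTomato-negative library and between 991 and 4657 CPM in the 6 positive ones. The fresh bowel library stood apart, since smooth muscle markers summed to 25840 CPM there, pancreatic acinar genes to 56550 CPM and mesothelial markers to 1756 CPM. In the other 6 libraries acinar genes summed to between 3.003 and 6.38 CPM and mesothelial markers to between 1.006 and 100.3 CPM. Fewer cells of a type and less RNA per cell cannot be told apart in these bulk libraries.

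The labels were held against 5 ICC markers (Kit, Ano1, Etv1, Prkcq and Thbs4). The tdTomato-negative library had Kit at 21.7 CPM, Ano1 at 56.6, Etv1 at 83.0 and Thbs4, a thrombospondin of ICC and fibroblasts, at 3939, but Prkcq at 0.572. The fresh bowel library had all 5 at 19.6 CPM or more, with Thbs4 at 29.0, beside its smooth muscle, acinar and mesothelial RNA. The adipose neurospheres had Ano1 at 69.3 CPM beside Kit at 2.65 and Thbs4 at 0.373. The 6 genes are therefore described one by one, by their names, and no library is called an ICC population.

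**Figure D1:**
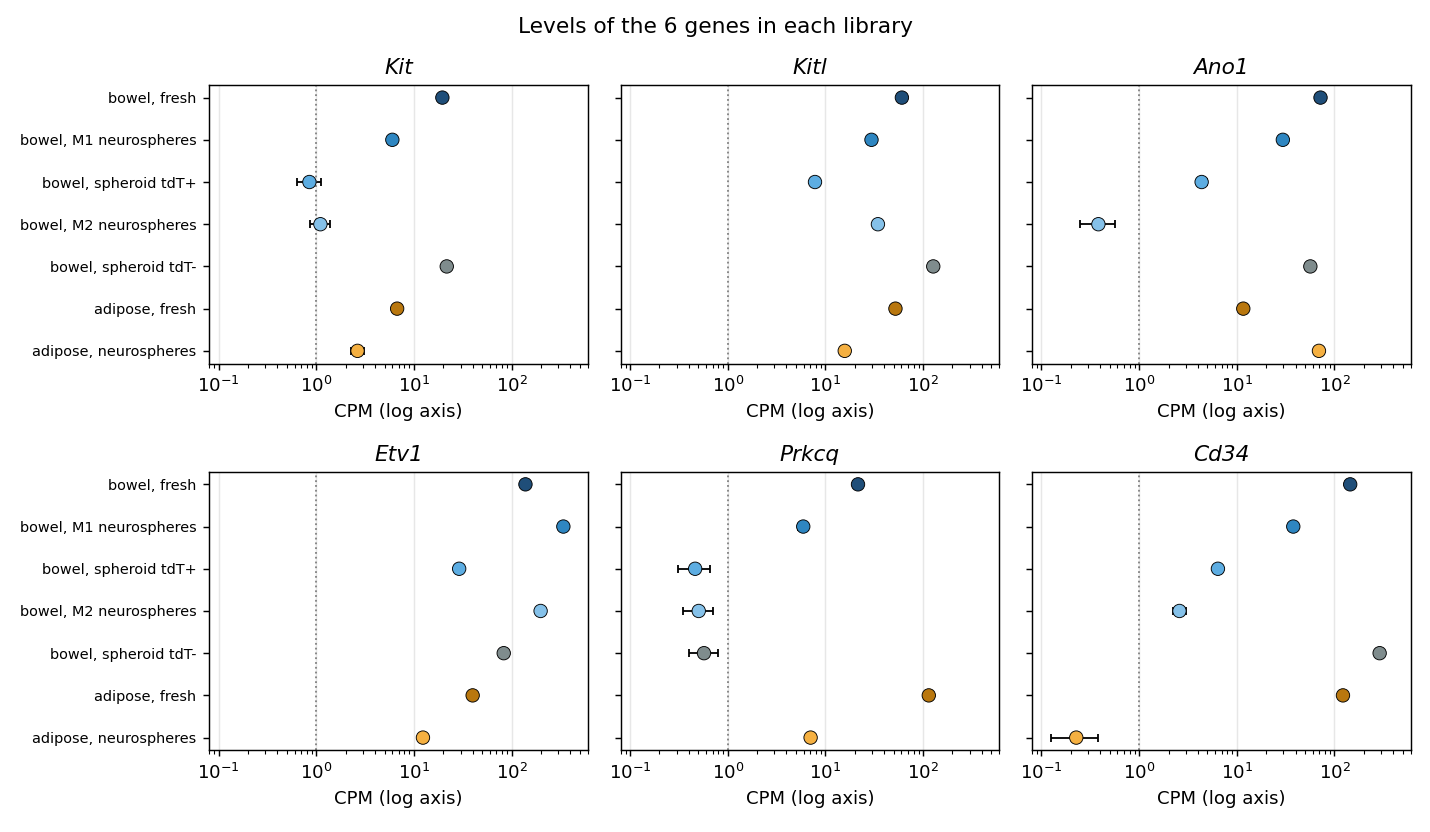
Level of each gene in the 7 libraries, in CPM on a log axis, with 1 point per library and 95% exact Poisson counting intervals; the dotted line marks 1 CPM. Kit, Kitl and Cd34 were highest in the tdTomato-negative library, Ano1 in the fresh bowel library, Etv1 in the M1 neurospheres and Prkcq in the fresh adipose library. The top interval overlapped the next for Kit (fresh bowel cells) and for Ano1 (adipose neurospheres).

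Kit (Entrez 16590, GRCm38 chr5:75574987-75656722, plus strand) encodes the receptor. Its level was 21.7 CPM in the tdTomato-negative cells, 19.6 in fresh bowel cells, 6.73 in fresh adipose cells and 6.01 in M1 neurospheres. It was 2.65 CPM in adipose neurospheres, 1.10 in M2 neurospheres and 0.851 in the tdTomato-positive spheroid cells. The first pair, the second pair and the last pair in this order had overlapping counting intervals, so the order within them was not resolved at this depth. Of the 3 bowel libraries that passed through mixed spheroids, the tdTomato-negative cells had Kit at 21.7 CPM and the positive cells and M2 had about 1 CPM.

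Between the sorted fractions of the spheroids, Kit was lower in the positive cells, with a log2 ratio of -4.86 (interval -5.33 to -4.52). Against fresh bowel cells it was lower in M1 neurospheres (-2.15), M2 neurospheres (-4.39) and tdTomato-positive spheroid cells (-4.64). M2 was also lower than M1 (-2.24). In fat the ratio of neurospheres to fresh cells was -1.48, which did not pass.

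Mast cells are the other common source of Kit in these tissues, and their markers varied too. The summed level of 8 mast cell genes was 58.0 CPM in fresh adipose cells, 38.2 in fresh bowel cells, 13.9 in M1 and 12.4 in the tdTomato-negative cells. It was 0.720 CPM in M2, 0.511 in the tdTomato-positive spheroid cells and 0.146 in adipose neurospheres, with 0 of the 8 genes at 1 CPM in those 3 libraries. Cpa3, a mast cell carboxypeptidase, and Cma1, a chymase, had 0 reads in M2 and in the positive spheroid cells. The part of mast cells in the Kit levels was not tested. Melanocyte markers summed to between 6.90 and 14.3 CPM in all 7 libraries. Of the pigment enzymes, Tyr was at 0 reads in 5 libraries and at most 0.116 CPM in the others, while Dct was at 5.20 CPM and Tyrp1 at 3.73 CPM in fresh adipose cells. The part of melanocytes was not tested either.

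Kitl (Entrez 17311, GRCm38 chr10:100015615-100100416, plus strand) encodes the ligand. It was at 127 CPM in the tdTomato-negative cells, 60.7 in fresh bowel cells, 52.2 in fresh adipose cells and 34.5 in M2 neurospheres. M1 neurospheres had 29.7 CPM, adipose neurospheres 15.8 and tdTomato-positive spheroid cells 7.83. No neighbours in this order had overlapping counting intervals, and the ligand was above 1 CPM in all 7 libraries. Per kilobase of exon, Kitl exceeded Kit in each library, for example with 21.5 against 2.43 CPM per kilobase in the tdTomato-negative cells.

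The sort split Kitl as it split Kit, with a log2 ratio of -4.26 (interval -4.40 to -4.13) in the positive cells. Kitl was also lower in tdTomato-positive spheroid cells than in fresh bowel cells (-3.12). It was higher in M2 neurospheres than in the tdTomato-positive cells (2.02), where Kit had a ratio of 0.25 that did not pass. The remaining ratios of Kitl, from -1.87 for adipose neurospheres over fresh adipose cells to 0.39 for M2 over M1, did not pass.

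Cd34 (Entrez 12490, GRCm38 chr1:194938821-194961292, plus strand) encodes a sialomucin of the cell surface. It had the widest range of the 6 genes. It was at 290 CPM in the tdTomato-negative cells, 145 in fresh bowel cells, 122 in fresh adipose cells and 37.9 in M1 neurospheres. It was at 6.41 CPM in tdTomato-positive spheroid cells, 2.59 in M2 neurospheres and 0.227 in adipose neurospheres (14 reads, interval 0.124 to 0.381). No neighbours overlapped. Its exons share 148 bases with the antisense gene Gm16897, which was at no more than 1.75 CPM, and whether reads were counted by strand is not stated by the labels.

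Cd34 was 53.2-fold lower in the positive than in the negative cells of the spheroids. It was 518-fold lower in adipose neurospheres than in fresh adipose cells, a log2 ratio of -9.02 (interval -10.09 to -8.47). Against fresh bowel cells it was lower in M1 (-2.39), in M2 (-6.07) and in the tdTomato-positive spheroid cells (-4.66). M2 was lower than M1 (-3.68), and adipose neurospheres were lower than M2 (-3.23). Fresh adipose and fresh bowel cells had a ratio of -0.27, which did not pass.

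Of the other sialomucins of its family, Podxl (podocalyxin) was lower beside Cd34 in 6 comparisons, which share libraries. These were the sort (-2.21), M1, M2 and tdTomato-positive cells over fresh bowel (-2.80, -5.26 and -4.23), neurospheres over fresh adipose cells (-3.50) and M2 over M1 (-2.47). Of all genes 12.5%, 16.3%, 21.0%, 20.4%, 20.8% and 7.37% were lower in them, in that order. Podxl was low, at 2.65 CPM per kilobase in fresh adipose and 2.49 in fresh bowel cells. It was at 0.0726 to 0.580 CPM per kilobase in the cultured libraries. Podxl2 was lower in 1 comparison, tdTomato-positive spheroid cells over fresh bowel cells (-2.16).

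The markers of 2 cell types that carry CD34 changed over the same libraries. Those of PDGFRA-positive fibroblast-like cells summed to 23910 CPM in the tdTomato-negative cells, 12150 in fresh adipose cells, 5219 in fresh bowel cells and 1590 in M1 neurospheres. They summed to 1405 CPM in adipose neurospheres, 564 in tdTomato-positive spheroid cells and 285 in M2. Endothelial markers summed to 380 CPM in fresh adipose cells and 333 in fresh bowel cells, against 9.72 to 67.1 CPM in the 5 cultured libraries. The part of these cells in the Cd34 levels was not tested.

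**Figure D2:**
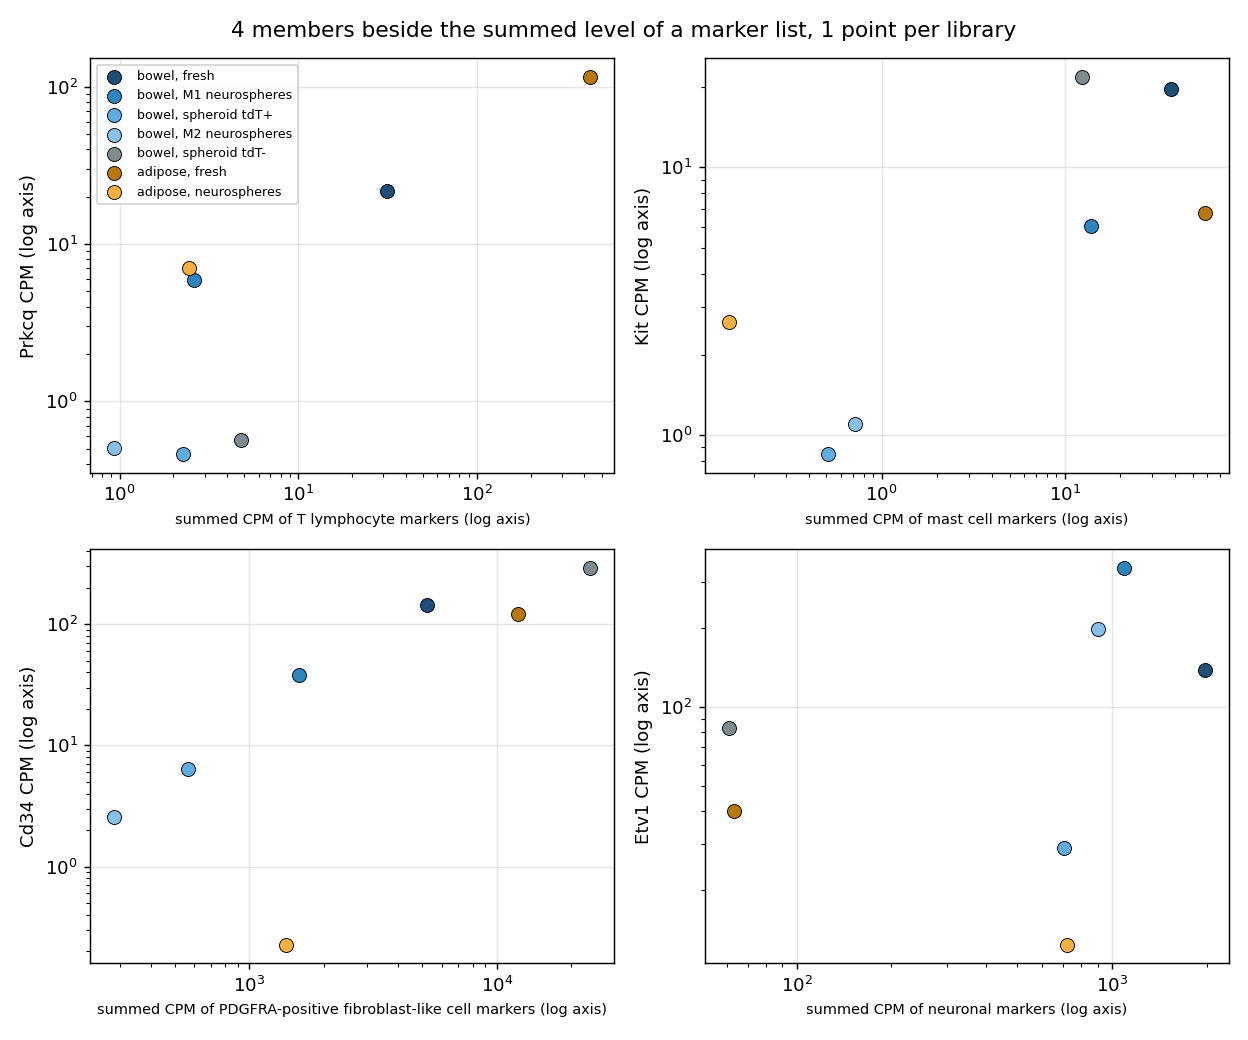
Levels of Prkcq, Kit, Cd34 and Etv1 (CPM, log axes) against the summed CPM of a marker list of another cell type, with 1 point per library. Fresh adipose cells are far right and top for T lymphocyte markers and Prkcq (433 and 114 CPM), while adipose neurospheres lie at the bottom for Cd34 with fibroblast-like markers at 1405 CPM.

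Kit, Kitl and Cd34 varied most alike over the 7 libraries, so the DNA before their start sites is shown. Pearson's r on log2(scaled CPM + 1) was 0.869 for Kit and Kitl, 0.871 for Kit and Cd34 and 0.808 for Kitl and Cd34. Among the 15 pairs the next was Kit and Ano1 at 0.751, and the other 11 lay between -0.148 and 0.430. These are descriptions over 7 libraries that differ in tissue, culture and depth. The sequences come from RefSeq (GRCm38.p6), 5' to 3' on the plus strand, and stop before the first base of any annotated exon. Capitals mark a GC box (GGGCGG or its complement).

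Kit, chr5:75574737-75574915: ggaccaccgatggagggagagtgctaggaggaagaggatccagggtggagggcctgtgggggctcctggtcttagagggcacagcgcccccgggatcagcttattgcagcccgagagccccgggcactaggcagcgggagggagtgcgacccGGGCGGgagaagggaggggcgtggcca
Kitl, chr10:100015571-100015614: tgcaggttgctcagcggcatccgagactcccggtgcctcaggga
Cd34, chr1:194938571-194938818: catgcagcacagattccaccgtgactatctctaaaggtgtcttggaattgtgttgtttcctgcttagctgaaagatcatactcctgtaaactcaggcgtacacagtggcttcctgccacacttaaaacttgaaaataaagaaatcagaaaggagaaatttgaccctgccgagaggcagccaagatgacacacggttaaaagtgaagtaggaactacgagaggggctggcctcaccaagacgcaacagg

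Of each window of 250 bases before the start site listed by RefSeq, 71 bases of Kit, 206 of Kitl and 2 of Cd34 lie at or after the first annotated exon base and were left out. The Kitl start site used lies inside the annotated gene. The printed bases of Kit had 69.3% G or C and 1 GC box, and those of Cd34 had 46.4% and none. Over 32851 RefSeq windows of 250 bases the median was 52.4% G or C, and 32.7% held a GC box on either strand. The other motifs searched, the TATA box TATAAA, the ETS motif CCGGAA and the E-boxes CATGTG and CACGTG, were in neither the Kit nor the Cd34 window. They were in 12.4%, 12%, 12.3% and 6.02% of all windows. A match or its absence says nothing of the factors that bind, and nothing is drawn for Kitl from its 44 bases.

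Ano1 (Entrez 101772, GRCm38 chr7:144588549-144752026, minus strand) encodes the chloride channel. It was at 71.9 CPM in fresh bowel cells, 69.3 in adipose neurospheres, 56.6 in the tdTomato-negative cells and 29.6 in M1 neurospheres. Fresh adipose cells had 11.7 CPM, tdTomato-positive spheroid cells 4.36 and M2 neurospheres 0.383 (25 reads, interval 0.248 to 0.565). The intervals of fresh bowel cells and adipose neurospheres overlapped, and no other neighbours did. The 2 libraries grown by the same 2-stage method thus lay near opposite ends of the order, adipose near the top and bowel M2 at the bottom.

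Ano1 was higher in adipose neurospheres than in M2 neurospheres by a log2 ratio of 7.50 (interval 7.06 to 8.25). With M1 as the bowel library, an alternative chosen after the data were seen, the ratio was 1.52 and did not pass. In fresh cells the order was the reverse, and Ano1 was lower in adipose than in bowel cells (-2.64). From fresh cells to neurospheres it was higher in fat (2.42, interval 2.31 to 2.54) and lower in bowel M2 (-7.71, interval -8.47 to -7.28). M1 over fresh bowel cells gave -1.74, which did not pass. Ano1 was also lower in M2 than in M1 (-5.98) or in tdTomato-positive spheroid cells (-3.52). It was lower in those positive cells than in fresh bowel cells (-4.21) or in the negative cells of the same spheroids (-3.93).

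In adipose neurospheres 5 of the 6 genes were above 1 CPM: Ano1 at 69.3, Kitl at 15.8, Etv1 at 12.4, Prkcq at 7.06 and Kit at 2.65 CPM. Cd34 was at 0.227 CPM, Thbs4 at 0.373 CPM and Tacr1, the tachykinin receptor of ICC, at 0 reads. Their crest and glial markers summed to 2443 CPM, with Sox10, the transcription factor of crest progenitors and glia, at 632 CPM. Per kilobase, Ano1 at 11.1 CPM was below Ano6, a lipid scramblase (20.5), and Ano10 (18.7) in that library. In fresh bowel cells Ano1 at 11.5 CPM per kilobase was above Ano6 (10.9) and below Ano10 (15.7).

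Other anoctamins moved with Ano1 in some comparisons and against it in others. Ano2, a second calcium-activated chloride channel, was at 26.8 CPM in fresh bowel cells and at 0 reads in adipose neurospheres, with 0.0919 to 1.20 CPM in the other 5 libraries. Like Ano1 it was lower in fresh adipose than in fresh bowel cells (-4.46), and lower than in fresh bowel cells in M2 (-8.01) and in tdTomato-positive spheroid cells (-5.80). Ano2 was also lower in M1 than in fresh bowel cells (-7.18), where Ano1 did not pass. From fresh adipose cells to neurospheres it went from 1.20 CPM to 0 reads, where Ano1 was higher. Ano3 was, like Ano1, lower in the positive cells of the sort (-2.13) and higher in adipose neurospheres than in fresh adipose cells (2.58). It was at 14.7 CPM in M1 and 10.6 in M2 against 0.156 in fresh bowel cells, so that it was higher in both (5.84 and 5.56). Ano6 passed in none of the 9 comparisons, and neither did Ano10. Of the measured anoctamins, Ano1 included, 1 of 6 was higher and 2 lower across the sort, beside 6.64% and 12.5% of all genes. Against fresh bowel cells 2 of 8 were higher and 3 lower in both M2 and tdTomato-positive spheroid cells. Of all genes 5.89% and 6.57% were higher there, and 21.0% and 20.4% lower. In fat 3 of 7 were higher and 1 lower in neurospheres, beside 5.71% and 20.8%.

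Etv1 (Entrez 14009, GRCm38 chr12:38780082-38870483, plus strand) encodes the transcription factor. It was at 339 CPM in M1 neurospheres, 198 in M2 neurospheres, 139 in fresh bowel cells and 83.0 in the tdTomato-negative cells. It was at 39.9 CPM in fresh adipose cells, 29.0 in tdTomato-positive spheroid cells and 12.4 in adipose neurospheres. No neighbours had overlapping intervals. Etv1 was the 1 gene of the 6 with its 2 highest levels in bowel neurospheres.

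Etv1 was lower in adipose neurospheres than in M2 (-3.88, interval -3.99 to -3.78), and with M1 as the bowel library it was lower too (-4.48). It was higher in M2 than in tdTomato-positive spheroid cells (2.66), and lower in those cells than in fresh bowel cells (-2.43). The sort gave a ratio of -1.76, a 3.38-fold lower level in the positive cells that did not pass. M1 and M2 over fresh bowel cells gave 0.83 and 0.23, neither of which passed.

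ETV1 belongs with ETV4 and ETV5 to the PEA3 group of ETS factors, which respond to fibroblast growth factor and ERK signalling. Etv4 was higher in each cultured positive library than in the fresh cells of its tissue. It was at 0.234 CPM in fresh adipose and 0.243 in fresh bowel cells, and higher in adipose neurospheres (5.21), M1 (5.68), M2 (5.44) and tdTomato-positive spheroid cells (3.60). Etv5 was higher in M1 (2.58), with 265 CPM against 32.2 in fresh bowel cells. Of the 8 genes of this group and the ERK feedback inhibitors, 4 were higher and 0 lower in M1 than in fresh bowel cells, with a median log2 ratio of 1.71 against -0.07 over all genes. The other 2 were Spry2 (2.90) and Spry4 (3.12), which encode sprouty inhibitors. Of all genes 6.58% were higher there. M2 over fresh bowel cells had 3 higher and 0 lower, beside 5.89% of all genes higher. In tdTomato-positive spheroid cells 2 were higher than in fresh bowel cells, Etv4 and Spry2 (4.21), and 1 lower, Etv1, beside 6.57% and 20.4% of all genes. In fat 1 was higher in neurospheres, Etv4, and 1 lower, the ERK phosphatase gene Dusp6 (-2.44), beside 5.71% and 20.8%, with a median of -0.58. The summed level of the 8 genes was 728 CPM in fresh adipose cells and 257 in adipose neurospheres.

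Adipose neurospheres had 0 of the 8 higher than M2 and 3 lower, Etv1, Spred1 (-2.34) and Spry4 (-2.12), beside 8.71% of all genes lower. M2 had 2 higher than tdTomato-positive spheroid cells, Etv1 and Spry4 (2.10), beside 3.07%, and 0 of 8 passed in M2 over M1. Fresh adipose cells had 1 of 7 measured genes higher than fresh bowel cells, Spry2 (2.33), beside 7.09%. Across the sort 0 were higher and 3 lower in the positive cells, namely Etv4 (-3.68), Spry4 (-3.35) and Etv5 (-2.47), beside 12.5% of all genes lower.

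Enteric neurons express ETV1, and neuronal markers summed to 1968 CPM in fresh bowel cells, 1089 in M1, 903 in M2 and 706 in tdTomato-positive spheroid cells. They summed to 722 CPM in adipose neurospheres, 63.4 in fresh adipose cells and 60.9 in the tdTomato-negative cells. Elavl4, a neuronal RNA-binding protein, was at 207 CPM in M1, 162 in fresh bowel cells, 125 in M2 and 11.5 in tdTomato-positive spheroid cells, with 0.155 to 0.297 CPM in the other 3 libraries. The markers did not all go this way. Against fresh bowel cells 4 of the 10 were lower in M1, among them Prph (-5.22) and Snap25 (-3.43). In M2 4 were lower and in tdTomato-positive spheroid cells 7, with 0 higher in each of these comparisons. Of all genes 16.3%, 21.0% and 20.4% were lower in them, in that order. In adipose neurospheres 4 of the 10 were at 1 CPM or more. Against M2, adipose neurospheres had 6 of the 10 lower and 1 higher, Uchl1 (2.38), beside 8.71% and 5.33% of all genes. Uchl1 was also higher there than in fresh adipose cells (5.66). The part of neurons in the Etv1 levels was not tested. Across the sort 8 of 9 measured neuronal markers were higher in the positive cells and 1 lower, Snap25, a synaptic vesicle fusion protein (-4.78), at 47.3 CPM in the negative cells. Of all genes 6.64% were higher and 12.5% lower there.

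Prkcq (Entrez 18761, GRCm38 chr2:11171905-11301226, plus strand) encodes protein kinase C theta, used as an immunostaining marker of ICC and best known from T cell receptor signalling. It was at 114 CPM in fresh adipose cells, 21.6 in fresh bowel cells, 7.06 in adipose neurospheres and 5.94 in M1 neurospheres. It was at 0.572 CPM in the tdTomato-negative cells, 0.505 in M2 and 0.464 in tdTomato-positive spheroid cells. Adipose neurospheres and M1 had overlapping intervals, and so had the neighbours among the last 3. Prkcq was the 1 gene of the 6 that was below 1 CPM in the tdTomato-negative cells while the summed CPM of the 17 further ICC genes was highest there.

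In fresh cells Prkcq was higher in adipose than in bowel (2.39, interval 2.30 to 2.48). It was lower in adipose neurospheres than in fresh adipose cells (-4.16), and lower than in fresh bowel cells in M1 (-2.31), M2 (-5.61) and tdTomato-positive spheroid cells (-5.61). M2 was lower than M1 (-3.30), and adipose neurospheres were higher than M2 (3.84). With M1 in place of M2 that ratio was 0.54 and did not pass. Across the sort Prkcq was not measured, since both libraries were under 1 CPM.

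T lymphocyte markers, like Prkcq, were highest in fresh adipose cells and next in fresh bowel cells. They summed to 433 CPM in fresh adipose cells, with 10 of 10 genes at 1 CPM, and to 31.6 CPM in fresh bowel cells, with 8 of 10. They summed to 0.934 to 4.79 CPM in the 5 cultured libraries, where the order was not that of Prkcq. The sum was 4.79 CPM in the tdTomato-negative cells, with Prkcq at 0.572. It was 2.45 CPM in adipose neurospheres and 2.62 in M1, with Prkcq at 7.06 and 5.94. Cd3d, a subunit of the T cell receptor complex, was at 36.1 CPM in fresh adipose cells and 1.13 in fresh bowel cells, with 0 reads in M1, M2 and tdTomato-positive spheroid cells. Prkch, a close isoform that T cells also use, was at 28.4 CPM in fresh adipose and 11.9 in fresh bowel cells, and at no more than 1.35 CPM in the others. The part of lymphocytes in the Prkcq levels was not tested.

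Among the 9 protein kinase C genes, Prkcq was second per kilobase in fresh adipose cells (16.2), after Prkcd (20.2). It was at 0.0656 to 3.05 CPM per kilobase in the other 6 libraries. Beside Prkcq, 4 isoforms were lower in M2 than in fresh bowel cells: Prkch (-6.83), Prkcz (-3.88), Prkcb (-3.84) and Prkcd (-2.82). With Prkcq these made 5 of 8 measured genes of the family, beside 21.0% of all genes lower. The counts lower were 3 of 9 in M1 and 4 of 9 in tdTomato-positive spheroid cells over fresh bowel cells, beside 16.3% and 20.4%. In those positive cells 1 was higher, beside 6.57%. Neurospheres over fresh adipose cells had 4 of 8 lower, the sort 3 of 8 and M2 over M1 3 of 9. Of all genes 20.8%, 12.5% and 7.37% were lower there. The remaining comparisons had 1 higher and 1 lower each, beside 3.07% to 7.09% and 3.86% to 11.4% of all genes. Prkci, an atypical isoform, passed in no comparison.

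**Figure D3:**
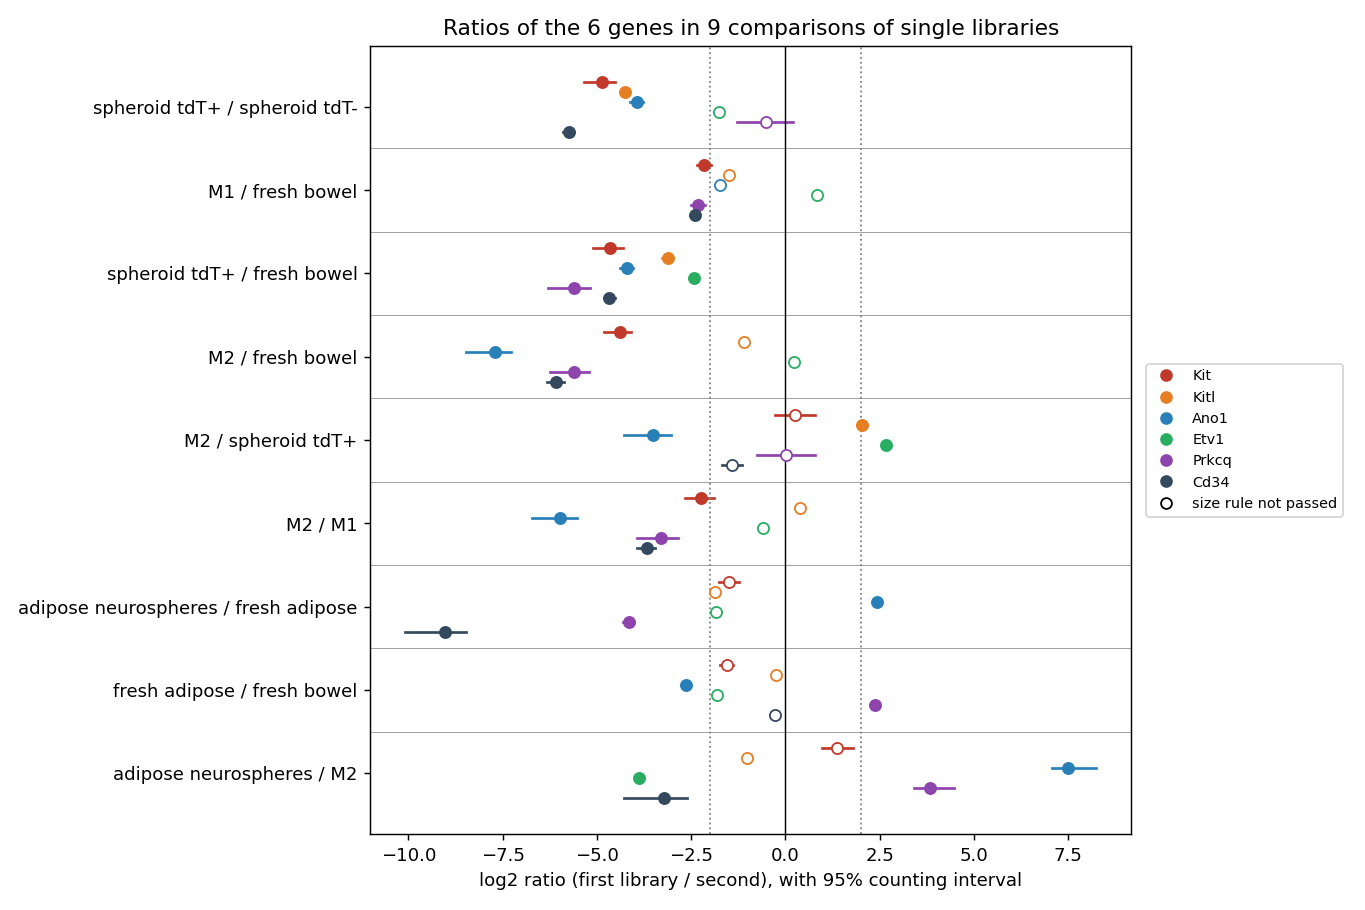
Log2 ratios of the 6 genes in the 9 comparisons (first library over second) with 95% counting intervals; filled points passed the size rule, open points did not, and dotted lines mark 4-fold. All 6 points of the tdTomato-positive spheroid cells over fresh bowel cells are filled and left of the line, and Ano1 lies at 7.50 and 2.42 in the comparisons with adipose neurospheres and left of 0 in the others.

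Counted together, 4 of the 5 measured genes were lower and 0 higher in the positive than in the negative cells of the spheroids. Of all measured genes 12.5% were lower and 6.64% higher in that comparison, and the median log2 ratio was -4.26 for the 5 genes and 0.00744 over all genes. Against fresh bowel cells, all 6 genes were lower in tdTomato-positive spheroid cells, where 20.4% of all genes were lower and 6.57% higher. In M2 neurospheres 4 of the 6 were lower and 0 higher than in fresh bowel cells, beside 21.0% and 5.89% of all genes. In M1 neurospheres 3 were lower and 0 higher, beside 16.3% and 6.58% of all genes. These 3 were Kit, Prkcq and Cd34, with 4.45-fold to 5.26-fold lower scaled levels, and under scaling by library totals 0 of them passed.

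The medians of the 6 genes against fresh bowel cells were -4.42 in tdTomato-positive spheroid cells, -5.0 in M2 and -1.95 in M1, while those over all genes were -0.03, -0.07 and -0.07. These 3 comparisons share the fresh bowel library, with its smooth muscle, acinar and mesothelial RNA.

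M2 neurospheres had 4 of the 6 genes lower than M1 and 0 higher, beside 7.37% and 1.2% of all genes, with a median of -2.77. Against the tdTomato-positive spheroid cells from which such spheres were grown, 2 of the 5 measured genes were higher in M2, Kitl and Etv1, and 1 was lower, Ano1. Of all genes 3.07% were higher and 3.86% lower in that comparison. So after the second 10 days the ligand and the ETS factor were higher and the channel lower.

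In fat, neurospheres had 1 of the 6 genes higher than fresh cells, Ano1, and 2 lower, Prkcq and Cd34, beside 5.71% and 20.8% of all genes. Fresh adipose cells had 1 gene higher than fresh bowel cells, Prkcq, and 1 lower, Ano1, beside 7.09% and 11.4% of all genes. Adipose neurospheres had 2 higher than M2, Ano1 and Prkcq, and 2 lower, Etv1 and Cd34, beside 5.33% and 8.71%. With M1 as the bowel library 0 were higher and 2 lower, again Etv1 and Cd34, and 17.9% of all genes passed in either direction. Scaling by library totals moved the median of all genes by -0.17 to 0.46 on the log2 scale over the 9 comparisons, and no ratio of the 6 genes changed sign under it.

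A further 17 genes serve ICC function: gap junctions, calcium stores and entry, chloride loading, the nitric oxide and cyclic GMP pathway, and receptors for tachykinins and serotonin. Across the sort 10 of the 17 were lower in the positive cells and 0 higher, with a median log2 ratio of -2.74, beside 12.5% of all genes lower. The 2 lowest were Thbs4 (-7.32), at 29.1 against 3939 CPM, and Gucy1b1 (-6.68), a subunit of the nitric oxide receptor guanylyl cyclase, at 0.789 against 71.5 CPM. Its partner Gucy1a1 was at 1.93 against 99.7 CPM, and Tacr1 at 0.294 against 22.0 CPM; both were lower. Fibroblast-like cells can express them too; the markers of those cells summed to 23910 CPM in the negative library, and their part was not tested.

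Thbs4 made up most of the summed level of these 17 genes in the negative cells, 3939 of 5456 CPM. The sums in the other libraries ran from 482 CPM in fresh adipose cells to 1146 CPM in fresh bowel cells. The 17 genes, like the 6, were below their fresh bowel level in part: 9 were lower in tdTomato-positive spheroid cells, 8 in M2 and 5 in M1, with 0 higher in each, beside 20.4%, 21.0% and 16.3% of all genes lower. Their medians were -2.03, -1.72 and -1.19. Htr2b, a serotonin receptor of ICC, was among the 2 lowest each time, at 102 CPM in fresh bowel cells, 3.39 in M1, 0.836 in tdTomato-positive spheroid cells and 0.337 in M2. In M1 the others were Tacr1 (-5.85), Gucy1a1 (-4.48), Adgrd1 (-2.90) and Gucy1b1 (-2.41).

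Fresh adipose cells had 7 of the 17 lower than fresh bowel cells and 0 higher, beside 11.4% of all genes lower, with Htr2b the lowest at 0.0469 CPM (3 reads; log2 ratio -10.34, interval -13.39 to -9.57). From fresh adipose cells to neurospheres 4 were higher, Htr2b (4.54), Cacna1h, a T-type calcium channel (3.17), Gja1, the gap junction protein connexin 43 (2.09), and Stim1, a calcium sensor of the endoplasmic reticulum (2.02). In the same comparison 4 were lower, Adgrd1 (-5.50), Itpr1, the calcium release channel of ICC (-5.03), Thbs4 (-4.35) and Gucy1a1 (-2.002). These counts are out of 15 measured genes, beside 5.71% of all genes higher and 20.8% lower. Against M2 neurospheres, adipose neurospheres had Gucy1a1 (2.60) and Htr2b (2.54) higher and Itpr1 lower (-2.46). These were 2 and 1 of 14 measured genes, beside 5.33% and 8.71% of all genes. M2 had 5 of 16 measured genes lower than M1, Thbs4 (-5.12), Htr2b (-3.04), Gucy1a1 (-2.97), Adgrd1 (-2.38) and Ryr2 (-2.15), beside 7.37% of all genes. M2 had 1 of 14 lower than tdTomato-positive spheroid cells, Thbs4 (-5.48), beside 3.86% of all genes. In both comparisons 0 were higher.

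**Figure D4:**
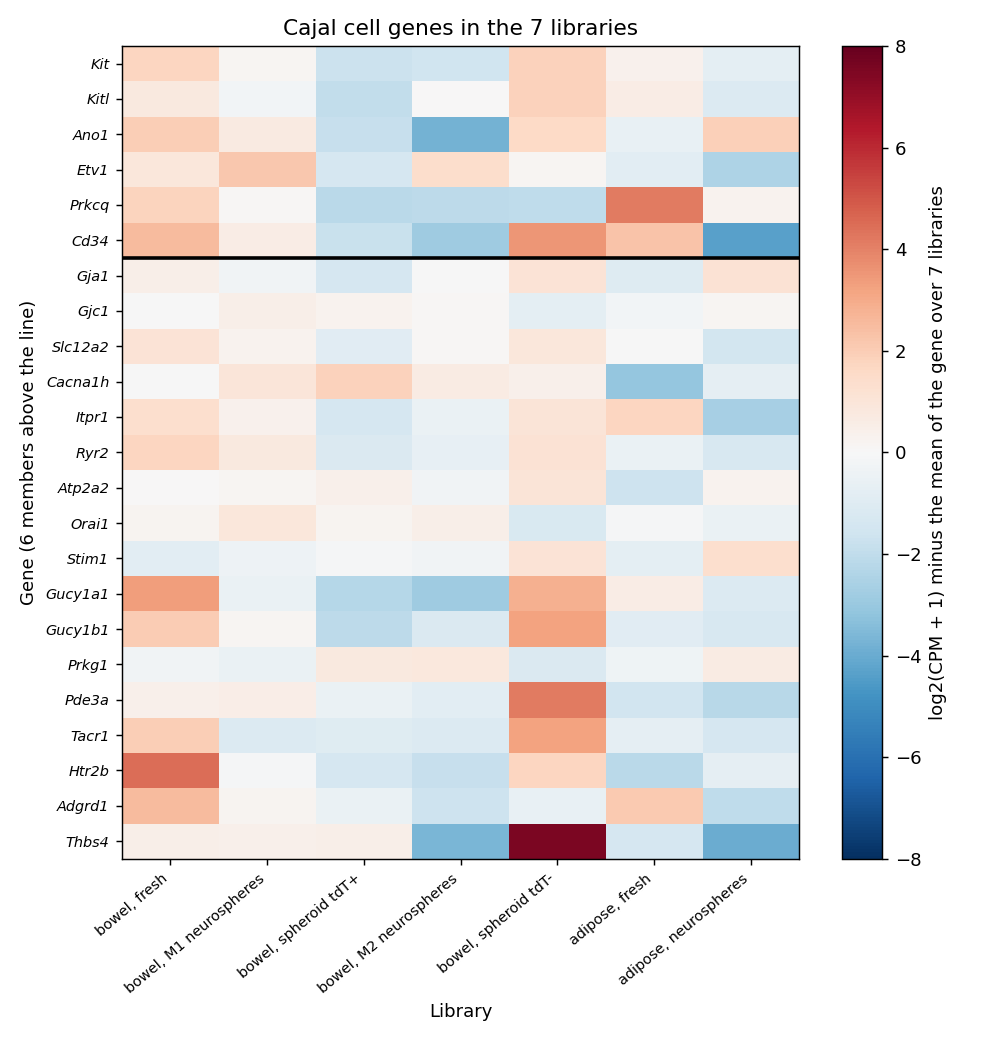
The 6 genes (above the line) and 17 further ICC genes in the 7 libraries, coloured by log2(CPM + 1) minus the gene's mean over the libraries (red above, blue below). Thbs4 in the tdTomato-negative cells is the darkest red, Htr2b stands out in fresh bowel cells, Prkcq in fresh adipose cells and Ano1 is blue in M2 neurospheres.

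The genes through which KIT signals were present throughout. All 23, adaptors, kinases, phosphatases and regulators, were at 1 CPM or more in every library, including those with Kit near 1 CPM. Of all 27179 genes, 12401 to 14690 reached 1 CPM in a library. Across the sort 1 was higher in the positive cells, Gab1, a docking adaptor (2.75), and 2 were lower, Mitf (-2.10) and Sh2b2 (-2.03), with a median of -0.48. Of all genes 6.64% were higher and 12.5% lower. Against fresh bowel cells, Src, a tyrosine kinase, was higher and Ptpn6, a phosphatase of blood cells that dampens KIT, was lower in each of 3 culture libraries. For Src the ratios were 3.13 in M1, 3.84 in M2 and 3.90 in tdTomato-positive spheroid cells, and for Ptpn6 they were -3.30, -3.81 and -3.40. Lyn, a kinase also abundant in blood cells, was lower in the same 3 (-3.10, -2.99 and -2.69). In those comparisons 2 or 3 of the 23 were higher and 2 lower, beside 5.89% to 6.58% and 16.3% to 21.0% of all genes. In fat 0 were higher and 4 lower in neurospheres than in fresh cells, Ptpn6 (-7.39), Cblb (-2.99), Stat5a (-2.84) and Jak2 (-2.28), beside 20.8% of all genes lower, so the share is no result about this pathway. Cblb and Stat5a were the 2 genes higher in fresh adipose than in fresh bowel cells (3.71 and 2.75), beside 7.09% of all genes. Adipose neurospheres had Sh2b2 higher than M2 (2.04) and 3 genes lower, Spred1 (-2.34), Ptpn6 (-2.31) and Pik3r1 (-2.03). Of all genes 5.33% were higher and 8.71% lower there. 0 of 23 passed in M2 over M1 or in M2 over tdTomato-positive spheroid cells.

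Of the receptors related to KIT, Pdgfra, the receptor of fibroblast-like cells of the gut muscle, was at 576 CPM in the tdTomato-negative cells. It was at 6.14 CPM in the positive ones and so lower there (-6.79). Pdgfrb, the other PDGF receptor (-2.55), and Csf1, a ligand of a related receptor (-4.47), were lower too. The PDGF ligand genes Pdgfb (4.57) and Pdgfa (2.10) were higher in the positive cells. With Kit and Kitl, 5 of the 9 measured genes of this group were lower and 2 higher across the sort. Of all genes 12.5% were lower and 6.64% higher. Like Kit, Pdgfra was lower than in fresh bowel cells in M1 (-2.19), M2 (-5.11) and tdTomato-positive spheroid cells (-3.66). Pdgfrb was instead higher in M1 (2.63) and in tdTomato-positive spheroid cells (2.48). In each of these comparisons 5 of the 10 genes were lower, beside 16.3%, 21.0% and 20.4% of all genes. The counts higher were 1, 0 and 1, beside 6.58%, 5.89% and 6.57%. Of 3 genes tied to ICC precursors, Igf1r, the insulin-like growth factor receptor, was higher than in fresh bowel cells in M1 (2.48), M2 (2.15) and tdTomato-positive spheroid cells (2.53). Cd44, a hyaluronan receptor, was higher in the last alone (2.78), and the third, Insr, passed in no comparison. So 1, 1 and 2 of the 3 genes were higher, beside the same 6.58%, 5.89% and 6.57% of all genes.

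The genes whose levels over the 7 libraries were most like each member's were listed among the 12216 genes that reached 10 CPM in 1 library or more, by Pearson's r on log2(scaled CPM + 1). For Kit they were Gucy1a1, Ptgir and Tmem119, each at 0.984. For Kitl they were Mamdc2 (0.973), Mpp6 (0.964) and Map3k5 (0.962), and for Cd34 C1s1 (0.990), Arhgap29 (0.988) and Dtnb (0.978). For Ano1 they were Slc25a22 (0.967), Ogfod2 (0.956) and Fastk (0.956). For Etv1 they were Cyth3 (0.957), Elapor2 (0.955) and Ccnd3 (0.951), and for Prkcq Crlf3 (0.989), Lrrc61 (0.981) and Nckap1l (0.980). None of the 6 was among the 3 nearest genes of another. With 7 libraries and 12216 genes such values are descriptions of these libraries.

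The likeness differed in scale between members. Gucy1a1 ran from 0.965 CPM in M2 to 143 in fresh bowel cells, a range wider than that of Kit. C1s1, a complement protease of fibroblasts, ran from 0.763 CPM in adipose neurospheres to 454 in the tdTomato-negative cells, the same 2 libraries as for Cd34. Fastk, a neighbour of Ano1 by this measure, moved only between 46.1 CPM in M2 and 93.1 in fresh bowel cells, while Ano1 moved between 0.383 and 71.9 CPM. Nckap1l, a cytoskeletal gene of blood cells, was at 77.0 CPM in fresh adipose cells, where Prkcq was highest.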

How the data were processed

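RNA of 7 groups was amplified as full-length cDNA (SMART-Seq v4) and made into Nextera XT libraries, per the labels' protocols. Values are CPM per Entrez gene, deposited by the authors; bcl2fastq 2.17, HISAT, featureCounts and mm10 are named in the submitters' processing notes, while settings, annotation and strand use are, in the sources used here, not given. Each deposited CPM was a whole multiple of 1 read, so whole reads were recovered (100% of values within 0.05 read). Since each group is 1 library, a count test had no residual degrees of freedom and was not possible. The reads carry no molecular identifiers and were amplified, so they do not stand for single molecules.

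Symbols and coordinates came from a RefSeq table of GRCm38 (25275 of 27179 identifiers matched) and exon lengths from the reference annotation of that build. Libraries were scaled by TMM over the 16461 genes that reached 1 CPM anywhere (edgeR 4.0.16, R 4.3.3). Log2 ratios used a prior count of 2, which understates ratios of low genes. Intervals at 95% are exact Poisson for levels and exact conditional binomial for ratios. The depth makes 3 reads equal to 0.0459 to 0.0578 CPM. The members, the 9 comparisons and the 18 gene lists were chosen with earlier results of these data known, so no list is independent support. Named genes were the members, their families, and from each list at most the 2 highest and 2 lowest that passed with at least 10 CPM. Other list genes, named where a count was 5 or fewer, where a marker or neighbour was needed, or because they are defining markers, were chosen after their values were seen, and so was Gm16897. Alternatives were total-count and DESeq2 1.42.0 scaling, size rules at 8-fold and at 2-fold, a prior of 0.5, no filter or one at 5 CPM, and M1 in place of M2. The steps were tested on simulated data. Tables and figures used scipy 1.17.1, pandas 2.3.3, numpy 2.4.6 and matplotlib 3.10.9 under Python 3.11.15.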

Additional observations from a re-analysis of the deposited data

Results flagged for a closer look

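Ano1 moved in opposite directions with culture in the 2 tissues: the log2 ratio of neurospheres to fresh cells was 2.42 in fat and -7.71 in bowel M2. Accordingly its ratio of adipose to bowel was -2.64 in fresh cells and 7.50 in neurospheres. The difference was not tested, since each value rests on 2 single libraries. With M1 as the bowel library the neurosphere ratio was 1.52.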

How the results depend on the processing

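No paired analysis was possible because each group has 1 library, and for the same reason no library could be left out within a group. Counts of members that passed were within 1.5 times the reported count in 56 results under an alternative and moved further in 8. For fresh adipose over fresh bowel cells the count was 2, and 4 under the 2-fold rule and 0 under the 8-fold rule. For M1 over fresh bowel cells it was 3, and 0 with scaling by library totals, 5 under the 2-fold rule and 0 under the 8-fold rule. For adipose neurospheres over fresh adipose cells it was 3, and 6 under the 2-fold rule. For M2 over tdTomato-positive spheroid cells it was 3, and 1 under the 8-fold rule. For adipose neurospheres over M2 it was 4, and 2 with M1 in place of M2, an alternative chosen after seeing the data. The fold rules change the count by their construction; for library totals the 3 genes lay near 4-fold. The 54 single ratios, each under 3 alternatives, stayed within their own 95% counting interval in 136 cases and moved beyond it in 26. The moves were at most 0.459 on the log2 scale, with 0 changes of sign.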
